A study of Mus musculus with 108 samples.

Results

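The genes described here encode the enzymes and complex subunits that place, remove and read the histone marks profiled in this study, together with the enzymes that methylate DNA and oxidize its methyl groups. The 52 members were listed by name and function, a rule that uses no measured value but was set with earlier results of these data known, and all 52 were found among the 26089 genes with a curated RefSeq transcript. They fall into 12 roles, from the core of Polycomb repressive complex 2 to the TET enzymes. The question addressed was in which chromatin state these genes stood in mouse liver, and how their states differed with age and with diet.

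Methylation of lysine 4 of histone H3 marks active regions of the genome, with the trimethylated form at transcription start sites (TSS) and the monomethylated form at enhancers and around the TSS. Acetylation of lysine 27 marks active promoters and enhancers, whereas trimethylation of the same residue is the mark of Polycomb repression, so that acetyltransferases and Polycomb complexes act on the same lysine. Most genes of these complexes are expressed in many tissues and start transcription from CpG islands, stretches of DNA rich in the dinucleotide CG that in most cells carry no DNA methylation.

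The livers came from female C57BL/6 mice. The 3 groups used here were mice of 3 months of age on standard diet (SD 3m, 8 mice), mice of 12 months on the same diet (SD 12m, 8 mice), and mice of 12 months on caloric restriction (CR 12m, 9 mice). CR was begun in adult mice, and none of the groups carries a transgene or a deletion. For each group the reads of all mice were merged and every bin of 200 bp was given 1 of 8 chromatin states by ChromHMM, a hidden Markov model that learns recurrent combinations of marks. The numbers of merged libraries for H3K4me3, H3K27me3, H3K27ac and H3K4me1 were 7, 7, 8 and 8 in SD 3m, 8, 8, 7 and 6 in SD 12m, and 5, 6, 9 and 9 in CR 12m. The states are named as in the study. State 1 (Active TSS) carries H3K4me3 and H3K27ac, and state 2 (Flanking TSS) also carries H3K4me1. State 3 (Active enhancer 1) carries H3K27ac and H3K4me1, state 4 (Active enhancer 2) weak H3K27ac, and state 5 (Poised enhancer) weak H3K4me1. State 6 (Repressed Polycomb) carries H3K27me3, state 7 (Repeats/cLAD) weak H3K4me3 and minimal H3K27me3, and state 8 (Quiescent) none of the marks. H3K4me3 thus stands mainly in states 1 and 2. Each group has 1 segmentation, so that every value below describes merged mice, no spread between mice can be given and no test across mice was possible. Where 3 values follow each other they stand for SD 3m, SD 12m and CR 12m, in this order. A label holds no signal height and no read depth, and gene expression was not measured in the files used here.

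Across the genome, between 24.2% and 31.9% of the bins differed in state between any pair of the 3 groups, and state 2 covered 1.13%, 0.425% and 0.361% of the bins. As a check of the tissue, the TSS bins of 8 of 8 hepatocyte genes, among them Alb, Tat and Cps1, were in states 1 to 4 in all 3 groups, and those of 4 of 4 neuronal genes were in state 6 in all 3 groups. Of 17 marker genes of endothelial cells, leukocytes, stellate cells and cholangiocytes, 5, 7 and 8 had the TSS bin in states 1 to 4, against 51.9%, 56.5% and 57.2% of all genes, and 2, 6 and 4 had it in state 6. The samples were whole liver, and the part of these cells in the states of the members was not tested. A state shared by few cells and a weak mark in many cells cannot be told apart in such samples.

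The TSS bin is defined here as the bin that holds the start of the longest curated transcript of a gene. In SD 3m, 42 of the 52 members (80.8%) had their TSS bin in state 1 or 2, against 40.1% of all genes. This number was 36 of 52 (69.2%) in SD 12m, against 34.7% of all genes, and 33 of 52 (63.5%) in CR 12m, against 30.7% of all genes. For 27 of the 52 members the TSS bin was in state 1 in all 3 groups, against 5002 of 20923 protein-coding genes. These members include Ezh2, Eed and Suz12 of the Polycomb core, all 6 H3K4 methyltransferases, and Ep300. For 8 members the TSS bin was in state 1 or 2 in no group, against 11055 of 20923 protein-coding genes. These 8 were Bmi1, Ash2l, Dpy30, Crebbp, Ncor1, Dnmt1, Dnmt3a and Tet1.

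The state of the TSS bin differed between SD 3m and SD 12m for 16 of 52 members, against 32.6% of all genes, and between SD 3m and CR 12m for 15 of 52 members, against 34.7% of all genes. Between SD 12m and CR 12m it differed for 10 of 52 members, against 26.7% of all genes. As shares of the members these are 30.8%, 28.8% and 19.2%, each below the share of all genes, and with 1 segmentation a group nothing can be called particular to the members from them. A closer background is given by the genes that started from the same states. Of the 42 members in state 1 or 2 in SD 3m, 8 had left both states in SD 12m, against 16.5% of all 10449 such genes, and 10 had left them in CR 12m, against 25.9%. The 7 genes that left them in both 12m groups were Ezh1, Phf19, Cbx6, Men1, Kdm1a, Kat2a and Dnmt3b. The TSS bins of Cbx7 left in SD 12m but not in CR 12m, and those of Phf1, Kdm6b and Hdac2 in CR 12m but not in SD 12m. The opposite move was made by Pcgf5 and Tet3 in SD 12m, 2 of the 10 members that had been in neither state, against 2.07% of all 15640 such genes. In CR 12m Pcgf5 alone did so, against 1.7%. These moves hold for the start of the longest transcript, and the values at other curated starts of both genes are given with their roles. Both 12m groups are set against 1 segmentation of SD 3m, and a fault there would enter both.

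**Figure D1:**
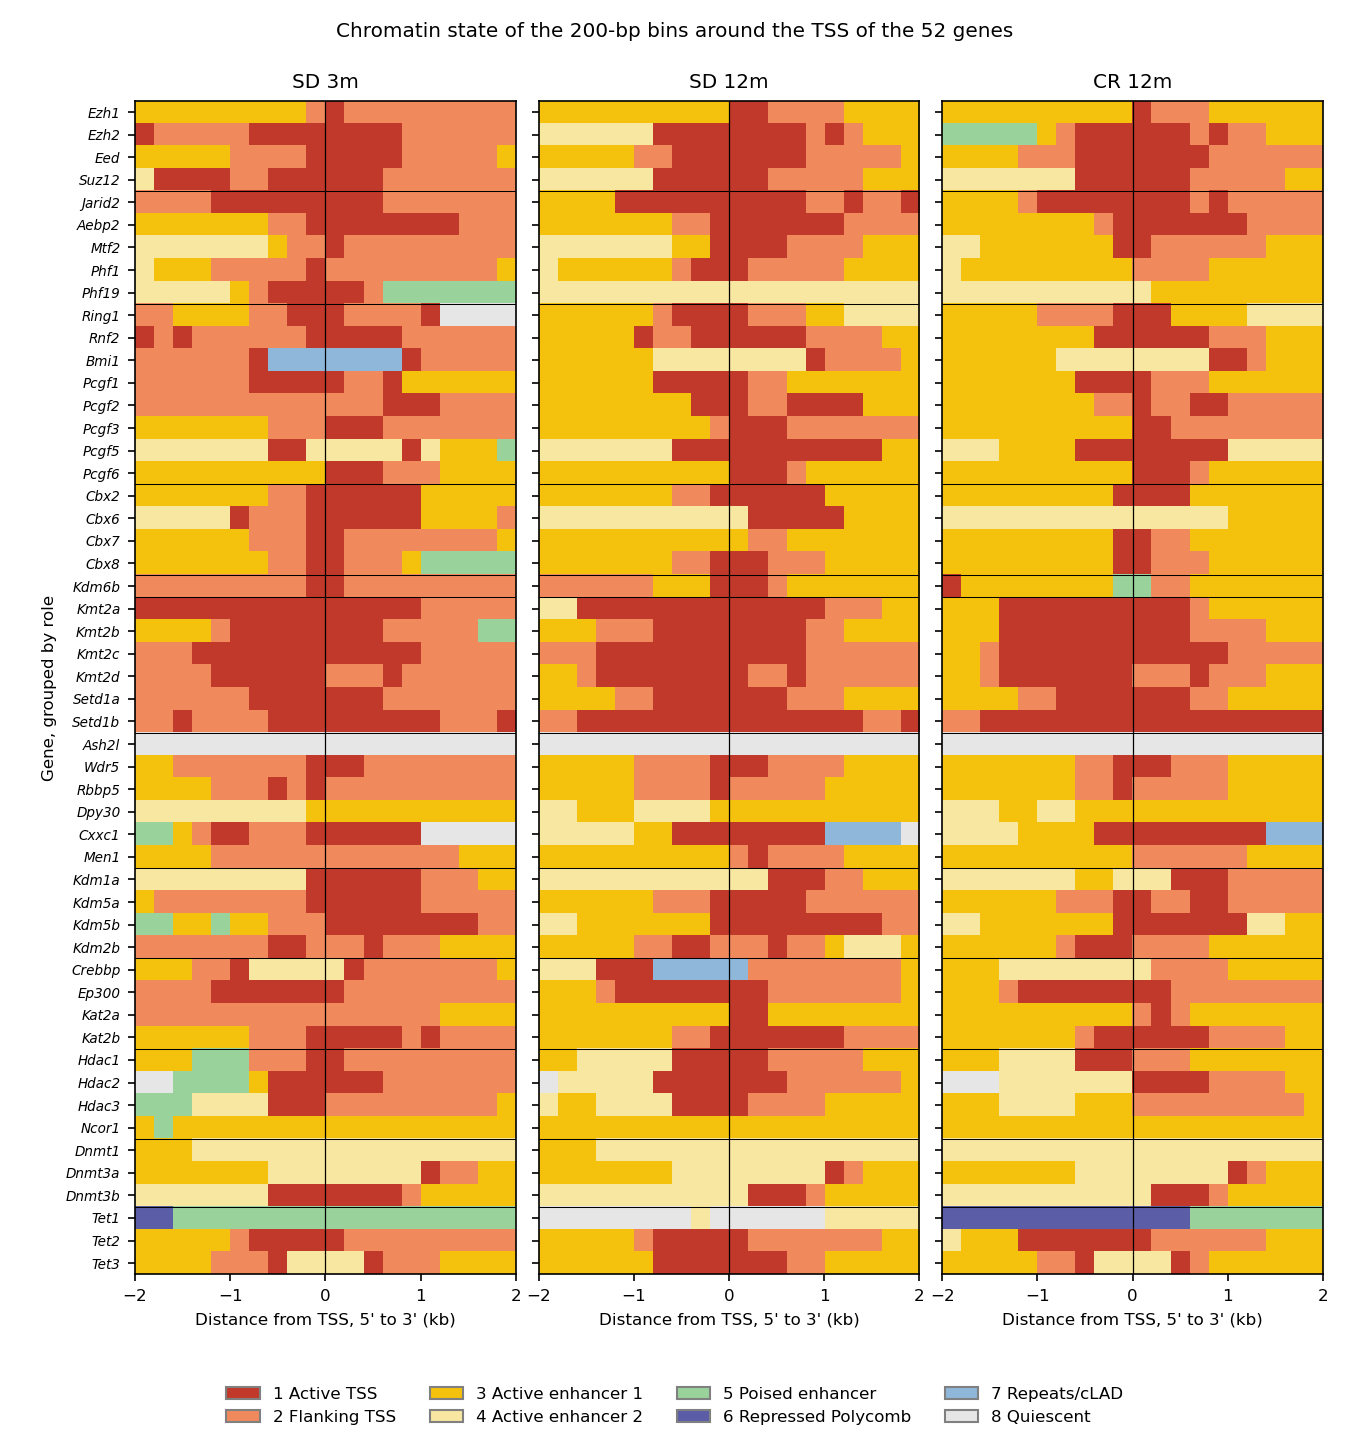
Chromatin state (colour) of the 20 bins of 200 bp within 2 kb of the TSS, 5′ to 3′, of the 52 genes (rows, grouped by role with black lines between roles) in SD 3m, SD 12m and CR 12m. Orange state 2 flanks seen in SD 3m are largely yellow state 3 in both 12m groups, while the red state 1 core is mostly kept, and Ash2l is in state 8 throughout.

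Around the TSS the difference between the ages was wider than at the TSS itself. Within 2 kb of the TSS, a window of 20 bins per gene, 63.0%, 44.6% and 38.2% of the members' bins were in state 1 or 2. Over all genes these shares were 29.5%, 19.4% and 17.1%. Among genes with the TSS bin in state 1 or 2 in SD 3m, the shares were 73.5%, 50.7% and 44.6% for the 42 members and 68.1%, 44.6% and 39.4% for all 10449 genes, so both sets fell in the same order. Both sets were chosen by these states in SD 3m, which raises their SD 3m share and builds in part of the fall.

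Most of the bins lost were those of state 2. State 1 covered 22.7%, 24.7% and 20.1% of the members' bins, whereas state 2 covered 40.3%, 19.9% and 18.1%. State 3, which differs from state 2 by the lack of H3K4me3, covered 19.3%, 35.7% and 42.7%. In SD 3m, 419 member bins were in state 2, of which state 3 had taken 163 (38.9%) by SD 12m and 209 (49.9%) by CR 12m, against 41.1% and 48% of the state 2 bins of all genes. Another 236 member bins were in state 1 in SD 3m, and this state was kept by 198 (83.9%) in SD 12m and by 171 (72.5%) in CR 12m, against 75.9% and 65.5% for all genes.

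Counted by gene, 37 of the 47 members with any bin in state 1 or 2 in SD 3m had fewer such bins in SD 12m, against 87.4% of all genes with any such bin, and 43 of 47 had fewer in CR 12m, against 91.9%. Cbx8, Pcgf5 and Tet3 had more such bins in SD 12m than in SD 3m, and Eed and Pcgf5 had more in CR 12m. At least 10 of the 20 bins differed between SD 3m and SD 12m for 12 of 52 members, against 33.2% of all genes, between SD 3m and CR 12m for 20 of 52 members, against 37.1%, and between SD 12m and CR 12m for 3 of 52 members, against 18.3%. The 3 genes that differed that widely between the diets at 12 months were Ezh2, Crebbp and Tet1. The numbers of merged H3K4me3 libraries were 7, 8 and 5, lowest in CR 12m as are the shares in state 1 or 2, and their part in these shares was not tested.

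**Figure D2:**
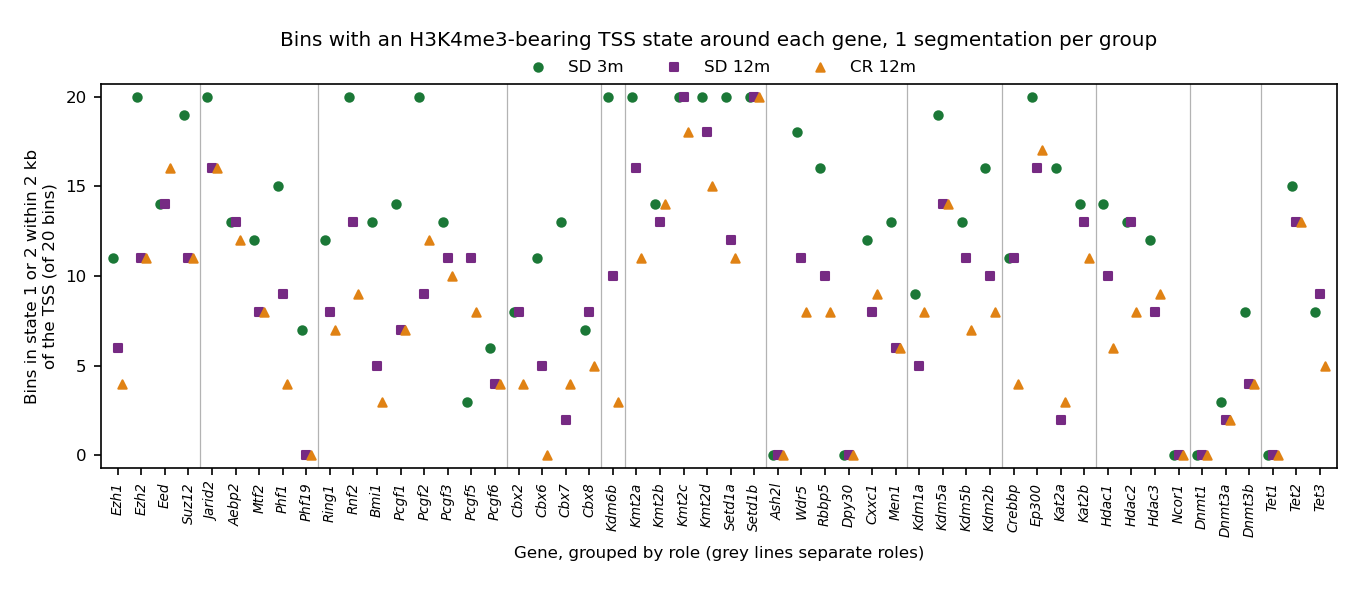
Number of bins in state 1 or 2 among the 20 bins within 2 kb of the TSS (vertical axis) of each of the 52 genes (horizontal axis) in SD 3m (circles), SD 12m (squares) and CR 12m (triangles), with 1 segmentation per group. The circle lies above the square for 37 genes and above the triangle for 43 genes, and Setd1b is at 20 in all 3 groups.

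Among the members the loss was larger on the upstream side. Of the members' bins upstream of the TSS, 53.5%, 31.2% and 24.2% were in state 1 or 2, and of those downstream 72.5%, 58.1% and 52.1%. At 500 bp upstream of the TSS, 76.9%, 57.7% and 42.3% of the members had the bin in state 1 or 2, whereas at 500 bp downstream the shares were 84.6%, 82.7% and 80.8%. Over all genes these shares were 32.2%, 21.6% and 17.8% at 500 bp upstream and 41.8%, 37.7% and 35.1% at 500 bp downstream. Counted over whole sides in percentage points, however, all genes fell about alike on both. Of their upstream bins 23.7%, 13.7% and 11.5% were in state 1 or 2, and of their downstream bins 35.4%, 25.1% and 22.6%. The same was seen for the 10449 genes with the TSS bin in these states in SD 3m, with 56.3%, 32.4% and 27.4% upstream and 80%, 56.8% and 51.4% downstream. Since the upstream shares were lower from the start, a like fall was a larger part of them. At 500 bp these 10449 genes had 77.2%, 52% and 42.9% upstream and 95%, 86.1% and 80.5% downstream, so a wider upstream fall was not particular to the members. The difference between the members and these genes was not tested.

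**Figure D3:**
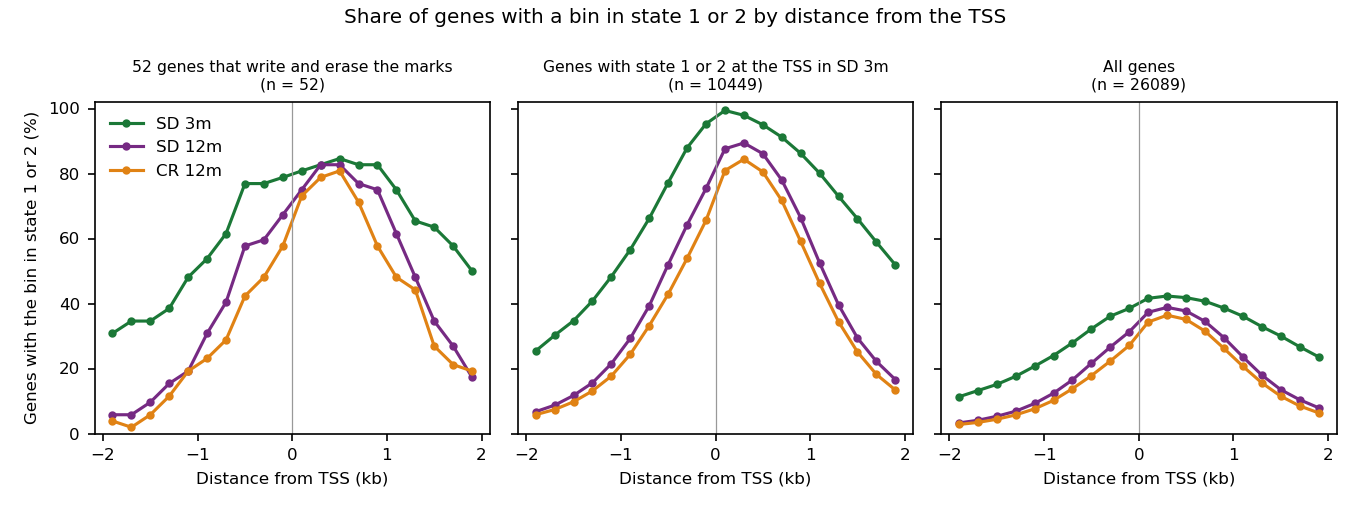
Percent of genes whose bin at a given distance from the TSS (horizontal axis, kb, 5′ to 3′) is in state 1 or 2, for the 52 members, for the 10449 genes with the TSS bin in state 1 or 2 in SD 3m, and for all 26089 genes, in SD 3m, SD 12m and CR 12m. Among the members the 3 lines meet near 500 bp downstream of the TSS, at 84.6%, 82.7% and 80.8%, and lie farthest apart upstream and beyond 1 kb downstream.

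Polycomb repressive complex 2 places the methyl groups on lysine 27. Its core is formed by EZH1 or EZH2, the catalytic subunits, with EED, which binds the trimethylated lysine, and SUZ12, the scaffold. The 4 core genes held 80%, 52.5% and 52.5% of their bins in state 1 or 2. Ezh2 (chr6:47530274-47595030, minus strand) had 20, 11 and 11 such bins, and Suz12 (chr11:79993106-80034123, plus strand) had 19, 11 and 11. Eed (chr7:89954654-89980976, minus strand) was the exception of the core with 14, 14 and 16. Ezh1 (chr11:101191115-101226463, minus strand) was the only core gene whose TSS bin differed, being in state 2, 3 and 3, with 11, 6 and 4 bins in state 1 or 2. EZH2 is known to prevail in dividing cells and EZH1 to be found in resting cells as well.

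The accessory subunits decide where the complex is recruited. Jarid2 and Aebp2 define one form of it and the Polycomb-like genes Mtf2, Phf1 and Phf19 another. Jarid2 had 20, 16 and 16 bins in state 1 or 2 and Aebp2 had 13, 13 and 12, with the TSS bin in state 1 in all groups. For Aebp2 this depends on the start. A start 1407 bp downstream was in state 1, 2 and 2, with 16, 13 and 13 bins. Starts 839 bp upstream and 3383 bp downstream were in state 3 throughout, with 8, 8 and 7 and with 12, 4 and 5 bins. Mtf2 had 12, 8 and 8. Phf1 (chr17:26933127-26937908, plus strand) had 15, 9 and 4 bins, and its TSS bin was in state 1 in both SD groups and in state 3 in CR 12m. Phf19 (chr2:34893755-34913976, minus strand) lost all such bins, with 7 in SD 3m and none in either 12m group, and its TSS bin passed from state 1 to state 4 in both. In SD 12m its whole window of 20 bins was in state 4, and in CR 12m 11 bins were in state 4 and 9 in state 3, so weak or strong H3K27ac was still called there in the absence of H3K4me3.

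Polycomb repressive complex 1 ubiquitinates histone H2A through RING1 or RNF2, which act together with a PCGF protein. Of these 8 genes, 6, 7 and 7 had the TSS bin in state 1 or 2, and 63.1%, 42.5% and 37.5% of their bins were in these states. Rnf2 had 20, 13 and 9 such bins and Ring1 had 12, 8 and 7, with the TSS bin in state 1 in all groups. Pcgf1, Pcgf3 and Pcgf6 also kept state 1 at the TSS, and Pcgf6 differed least, in 2 bins between SD 3m and either 12m group. Pcgf2 (chr11:97688823-97700497, minus strand) was in state 2, 1 and 2 at the TSS, with 20, 9 and 12 bins in state 1 or 2. Pcgf5 (chr19:36348329-36460970, plus strand) went the other way, with the TSS bin in state 4 in SD 3m and in state 1 in both 12m groups, and with 3, 11 and 8 bins. In SD 3m its state 1 bins lay on both sides of a stretch of state 4 that covered the TSS. Another curated start, 61419 bp downstream, was in state 4, 4 and 1, with 4, 3 and 4 bins in state 1 or 2. A start 30738 bp downstream was in state 8, 5 and 8, with no such bin.

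Bmi1 (chr2:18677018-18686629, plus strand), the PCGF gene known for repressing the Cdkn2a locus, had no TSS bin in state 1 or 2. In SD 3m, 7 bins around its TSS were in state 7 and were bordered by 2 bins of state 1 and 11 of state 2. In SD 12m and CR 12m the bins at the TSS were in state 4, with 5 and 3 bins in state 1 or 2, and 15 and 18 of its 20 bins differed from SD 3m, the largest number of all members in CR 12m together with Kdm6b.

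The CBX proteins are the readers by which complex 1 binds trimethylated lysine 27. Their 4 genes held 48.8%, 28.8% and 16.2% of their bins in state 1 or 2. Cbx7 (chr15:79915807-79932646, minus strand) had 13, 2 and 4 such bins and a TSS bin in state 1, 3 and 1. Cbx6 (chr15:79823898-79834333, minus strand) had 11, 5 and 0 with a TSS bin in state 1, 4 and 4, and shares its TSS with the gene Npcd. Another gene also starts within 2 kb of the TSS, on the opposite strand, for Ezh2, Kdm2b, Kdm5a, Rbbp5, Ring1, Hdac3, Kmt2b, Kmt2c, Kat2a and Ash2l, so that the windows of these 11 members cannot be assigned to 1 gene alone. Cbx2 had 8, 8 and 4 and Cbx8 had 7, 8 and 5, with the TSS bin in state 1 in all groups. Kdm6b (chr11:69398508-69416194, minus strand), which removes methyl groups from lysine 27, had 20, 10 and 3 bins in state 1 or 2, a drop of 17 bins between the first and the last. Its TSS bin was in state 1 in SD 3m and SD 12m and in state 5 in CR 12m.

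The H3K4 methyltransferases had the highest share of bins in state 1 or 2 of the 12 roles in both 12m groups, and in SD 3m only the single gene Kdm6b had a higher one. KMT2A and KMT2B act on developmental promoters, KMT2C and KMT2D place monomethylation on enhancers, and SETD1A and SETD1B account for much of the trimethylation in cells. All 6 genes had the TSS bin in state 1 in all 3 groups, and 95%, 82.5% and 74.2% of their bins were in state 1 or 2. Setd1b (chr5:123142193-123168630, plus strand) had 20 such bins in each group. Kmt2c (chr5:25271795-25498783, minus strand) had 20, 20 and 18 and differed from SD 3m in 1 and 2 bins. Kmt2d had 20, 18 and 15, Kmt2a had 20, 16 and 11, Kmt2b had 14, 13 and 14, and Setd1a had 20, 12 and 11. Between these genes the drop from SD 3m to CR 12m therefore ranged from none in Setd1b and Kmt2b to 9 bins in Kmt2a and Setd1a.

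The subunits that these enzymes share behaved less alike. Wdr5 had 18, 11 and 8 bins in state 1 or 2 and Rbbp5 had 16, 10 and 8, both with state 1 at the TSS in all groups. Cxxc1, which binds unmethylated CG and directs the SETD1 enzymes to CpG islands, kept state 1 at the TSS, with 12, 8 and 9 bins, although 13 and 14 of its 20 bins differed from SD 3m. Men1 (chr19:6334979-6340894, plus strand), the gene of menin, had 13, 6 and 6 bins and a TSS bin in state 2, 3 and 3, while 2 other curated starts 34 and 60 bp downstream lie in the next bin, which was in state 2 in all groups. Ash2l (chr8:25816000-25847694, minus strand) and Dpy30 (chr17:74299474-74323944, minus strand) had no bin in state 1 or 2 within 2 kb of the start of their longest transcript in any group, with Ash2l in state 8 and Dpy30 in state 3 at the TSS. For both this depends on the transcript chosen, and the values at their other starts are given with the promoters.

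Among the demethylases, KDM1A removes mono- and dimethylation and KDM5A and KDM5B trimethylation of lysine 4, while KDM2B acts on lysine 36 and brings a form of Polycomb complex 1 to CpG islands. Kdm1a (chr4:136550533-136602723, minus strand) had 9, 5 and 8 bins in state 1 or 2 and its TSS bin passed from state 1 to state 4 in both 12m groups, while bins in state 1 remained downstream. Kdm5a had 19, 14 and 14 bins with state 1 at the TSS throughout. Kdm5b (chr1:134560178-134632878, plus strand) had 13, 11 and 7 and passed from state 2 to state 1 at the TSS in both 12m groups. Kdm2b (chr5:122870668-122989099, minus strand) had 16, 10 and 8, with the TSS bin in state 2, 2 and 1. A curated start of Kdm2b 592 bp downstream was in state 1, 1 and 2, with 14, 10 and 8 bins. Another, 88732 bp downstream, was in state 4, 4 and 1, with 12, 3 and 7 bins.

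The acetyltransferases CREBBP and EP300 are closely related and acetylate lysine 27, whereas KAT2A and KAT2B act mainly on lysine 9. Ep300 (chr15:81586214-81652077, plus strand) had 20, 16 and 17 bins in state 1 or 2 with state 1 at the TSS in all groups. Crebbp (chr16:4084048-4213404, minus strand) had 11, 11 and 4, with a TSS bin in state 4, 7 and 4, and 15 of its 20 bins differed between SD 12m and CR 12m. Kat2a (chr11:100704746-100712467, minus strand) fell from 16 bins to 2 and 3 and its TSS bin passed from state 2 to state 3 in both 12m groups, the largest drop in number between SD 3m and SD 12m among the members, whereas its paralogue Kat2b had 14, 13 and 11 with state 1 at the TSS in all groups. The deacetylase genes Hdac1, Hdac2 and Hdac3 remove these acetyl groups, and NCOR1 is the corepressor that activates HDAC3. Hdac1 had 14, 10 and 6 bins with state 1 at the TSS. Hdac2 (chr10:36974544-37001888, plus strand) had 13, 13 and 8, and its TSS bin was in state 1 in both SD groups and in state 4 in CR 12m. Hdac3 (chr18:37936971-37954988, minus strand) had 12, 8 and 9, with the TSS bin in state 2, 1 and 2. Ncor1 had none within 2 kb of the start of its longest transcript.

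DNMT1 copies DNA methylation at replication, DNMT3A and DNMT3B place it anew, and the TET enzymes oxidize it. The 3 DNA methyltransferase genes held 18.3%, 10% and 10% of their bins in state 1 or 2, the lowest share of the 12 roles in each group, although the value for Dnmt1 rests on the transcript chosen. Dnmt3b (chr2:153649449-153687730, plus strand) had 8, 4 and 4 such bins and its TSS bin passed from state 1 to state 4 in both 12m groups. Tet2 (chr3:133463677-133544390, minus strand) had 15, 13 and 13 with state 1 at the TSS. Tet3 (chr6:83362373-83456392, minus strand) had 8, 9 and 5, with the TSS bin in state 4, 1 and 4. Its other curated start, 14714 bp downstream, was in state 1, 1 and 3, with 11, 6 and 3 bins in state 1 or 2.

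Tet1 (chr10:62804570-62887324, minus strand) was the only member with its TSS bin in 3 different states, 5, 8 and 6, and had no bin in state 1 or 2 in any group. State 5 took 18 of its 20 bins and state 6 took 2 in SD 3m, state 8 took 14 bins and state 4 took 6 in SD 12m, and in CR 12m state 6 took 13 bins and state 5 took 7. All 20 bins differed between SD 3m and SD 12m and all 20 between SD 12m and CR 12m, and no other member had a bin in state 6 in its window in any group. TET1 is best known from pluripotent and germ cells.

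The promoters of 6 of the 8 members without state 1 or 2 at the TSS in any group are printed here. They are the first 6 in alphabetical order for which a promoter at the start used here was at hand. That of Tet1, with 17 CG, came after them in this order, and that of Ash2l was not analysed here. Sequences are those of RefSeq on GRCm38.p6, from 250 bases before to 50 after the start, written 5′ to 3′ on the strand of the gene, with every CG dinucleotide in capitals. The table of promoters used matched 42 of the 52 members, 39 of them at the start used here, and 19069 of all genes. CG was the only motif searched. It reads the same on both strands, and 95.2% of the 19069 promoters hold at least 1 and 18.7% hold at most 2.

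Dnmt1, Dpy30 and Ncor1 started their longest transcript in DNA almost devoid of CG, with 2, 1 and 2 CG and a TSS bin in state 4, 3 and 3 in all 3 groups. Their promoters are shown first, followed by those of another curated start of the same gene, chosen after its values were seen as the start with the most bins in state 1 or 2 in SD 3m.
Dnmt1 (start of the longest transcript, chr9:20959839-20960138, minus strand): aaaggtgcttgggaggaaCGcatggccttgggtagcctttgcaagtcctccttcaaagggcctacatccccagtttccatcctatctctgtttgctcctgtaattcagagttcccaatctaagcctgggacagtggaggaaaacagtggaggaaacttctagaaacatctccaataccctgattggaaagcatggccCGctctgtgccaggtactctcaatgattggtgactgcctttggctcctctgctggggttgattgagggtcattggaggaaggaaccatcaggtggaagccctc
Dnmt1 (other curated start, chr9:20952574-20952873, minus strand): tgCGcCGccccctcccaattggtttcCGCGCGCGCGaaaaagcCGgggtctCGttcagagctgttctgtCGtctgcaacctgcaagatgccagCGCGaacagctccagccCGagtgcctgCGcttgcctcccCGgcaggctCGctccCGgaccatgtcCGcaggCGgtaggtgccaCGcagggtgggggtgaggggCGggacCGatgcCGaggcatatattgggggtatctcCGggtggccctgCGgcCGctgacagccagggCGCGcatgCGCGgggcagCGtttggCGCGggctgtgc
Dpy30 (start of the longest transcript, chr17:74323895-74324194, minus strand): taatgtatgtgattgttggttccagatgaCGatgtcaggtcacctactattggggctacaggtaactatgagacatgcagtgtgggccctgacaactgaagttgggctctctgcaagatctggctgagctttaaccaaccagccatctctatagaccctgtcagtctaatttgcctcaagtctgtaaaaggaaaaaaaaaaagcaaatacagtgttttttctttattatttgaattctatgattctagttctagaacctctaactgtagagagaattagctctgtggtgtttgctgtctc
Dpy30 (other curated start, chr17:74316162-74316461, minus strand): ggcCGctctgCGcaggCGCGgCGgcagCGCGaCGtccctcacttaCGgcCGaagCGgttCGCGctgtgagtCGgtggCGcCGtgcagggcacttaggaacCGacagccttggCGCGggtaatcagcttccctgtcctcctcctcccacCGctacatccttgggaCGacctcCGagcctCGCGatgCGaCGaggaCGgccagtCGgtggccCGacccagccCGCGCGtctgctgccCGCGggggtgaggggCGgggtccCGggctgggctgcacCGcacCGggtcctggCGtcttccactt
Ncor1 (start of the longest transcript, chr11:62438466-62438765, minus strand): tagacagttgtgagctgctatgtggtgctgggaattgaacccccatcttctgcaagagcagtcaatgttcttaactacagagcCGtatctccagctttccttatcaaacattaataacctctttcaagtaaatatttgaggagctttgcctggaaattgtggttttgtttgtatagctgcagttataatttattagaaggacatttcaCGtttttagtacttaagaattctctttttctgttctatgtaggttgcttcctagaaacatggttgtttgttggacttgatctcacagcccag
Ncor1 (other curated start, chr11:62457283-62457582, minus strand): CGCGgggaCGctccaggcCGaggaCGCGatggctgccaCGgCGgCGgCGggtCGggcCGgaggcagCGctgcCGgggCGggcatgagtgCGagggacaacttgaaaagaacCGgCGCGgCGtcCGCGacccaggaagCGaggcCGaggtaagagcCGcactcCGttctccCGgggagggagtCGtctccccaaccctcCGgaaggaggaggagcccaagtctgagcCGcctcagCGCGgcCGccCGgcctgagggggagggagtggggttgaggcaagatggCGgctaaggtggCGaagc
The other starts hold 33, 39 and 36 CG and lie 7265 bp downstream, 7733 bp downstream and 18817 bp upstream. At all 3 of them the bin was in state 1 in SD 3m, SD 12m and CR 12m. The numbers of bins in state 1 or 2 within 2 kb were 13, 7 and 6 for Dnmt1, 16, 6 and 8 for Dpy30, and 20, 19 and 16 for Ncor1. The same holds for Ash2l, whose other start 6907 bp downstream was in state 1 in all groups with 12, 11 and 9 such bins. Counting any curated start, 47, 41 and 38 of 52 members had a start in state 1 or 2, against 41.5%, 36.2% and 32.3% of all genes, and 14 members have more than 1 curated start.

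Bmi1, Crebbp and Dnmt3a, in contrast, started in DNA rich in CG, with 23, 49 and 46 CG, and no curated start of these genes was in state 1 or 2.
Bmi1 (start of the longest transcript, chr2:18676768-18677067, plus strand): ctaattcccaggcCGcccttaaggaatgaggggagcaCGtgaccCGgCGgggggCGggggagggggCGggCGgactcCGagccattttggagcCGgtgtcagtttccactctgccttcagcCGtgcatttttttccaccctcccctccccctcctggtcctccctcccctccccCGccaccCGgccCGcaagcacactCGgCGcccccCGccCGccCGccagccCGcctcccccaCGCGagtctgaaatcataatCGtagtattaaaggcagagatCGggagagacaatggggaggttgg
Crebbp (start of the longest transcript, chr16:4213355-4213654, minus strand): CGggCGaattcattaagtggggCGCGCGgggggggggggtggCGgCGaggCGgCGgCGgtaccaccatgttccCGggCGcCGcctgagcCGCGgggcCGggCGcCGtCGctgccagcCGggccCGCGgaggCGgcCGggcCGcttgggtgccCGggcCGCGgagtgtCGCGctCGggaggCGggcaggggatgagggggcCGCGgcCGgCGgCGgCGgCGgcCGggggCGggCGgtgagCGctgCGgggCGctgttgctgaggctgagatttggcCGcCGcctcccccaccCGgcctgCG
Dnmt3a (start of the longest transcript, chr12:3806730-3807029, plus strand): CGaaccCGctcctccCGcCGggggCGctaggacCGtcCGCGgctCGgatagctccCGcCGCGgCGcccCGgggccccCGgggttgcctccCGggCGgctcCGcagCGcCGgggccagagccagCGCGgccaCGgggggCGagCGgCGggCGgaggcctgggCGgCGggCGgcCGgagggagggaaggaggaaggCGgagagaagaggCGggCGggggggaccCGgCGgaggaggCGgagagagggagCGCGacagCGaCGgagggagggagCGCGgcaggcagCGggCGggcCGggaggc
Crebbp and Dnmt3a belong to the 1.97% of promoters with at least 46 CG. Among all promoters, the share with the TSS bin in state 1 or 2 in SD 3m was 5.98% with at most 5 CG, 39.6% with 6 to 15, 73.4% with 16 to 30, 74% with 31 to 45 and 57.6% with 46 or more. Likewise the share was 67.4% for TSS bins of 70 to 75% GC and 49.6% for those of at least 80% GC. The TSS bin of Crebbp had a GC content of 85.5% and that of Dnmt3a of 81.5%. Bmi1, with 67%, was not of this class. The class of at least 80% GC held 4 members, among them also Kmt2b (84%) and Dnmt3b (81%). The TSS bin of Kmt2b was in state 1 in all 3 groups and that of Dnmt3b in state 1, 4 and 4. Kmt2c and Tet2, with 56 and 57 CG in the promoter, were in state 1 in all 3 groups. Their TSS bins had 74% and 61.5% GC. At Crebbp 5 bins around the TSS were in state 4 in SD 3m, with a bin of state 1 on each side, and Dnmt3a had 3, 2 and 2 bins in state 1 or 2, all downstream of the TSS. The part of base composition in these labels was not tested. Over the members, the median promoter held 28 CG against 12 for all promoters, and 36 of 39 held at least 10, against 55.6% of all.

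Repeated sequence, in which reads cannot be placed, was scarce in these windows. Of all 50-base stretches within 2 kb of the TSS, the length of the reads, at most 6.88% (Kdm5b) occur again in the primary assembly, with 0 for Bmi1, Crebbp and Dnmt3a and 2.58% for Ash2l. In the TSS bin itself 22% were repeated for Hdac1, 13.5% for Ncor1 and none for the other 50 members.

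The state of the gene body, from start to end of the longest transcript, was examined next. Active enhancer states prevailed, with a mean over the members of 28.3%, 34.3% and 39.7% for state 3 and of 29.1%, 38.8% and 37% for state 4. State 3 covered 18%, 22% and 26.1% over protein-coding genes. Over the 10449 genes with the TSS bin in state 1 or 2 in SD 3m it covered 29.3%, 37.2% and 42.8%. For state 3 the members thus lay below these 10449 genes in each group. State 4 covered 10.6%, 17.7% and 16.8% over all genes and 16.2%, 23.5% and 23.1% over the 10449 genes with the TSS bin in state 1 or 2 in SD 3m, so the members lay above both averages in each group. State 5 covered 10.9%, 4.06% and 3.15% of the members' bodies, against 10%, 4.01% and 2.84% over all genes. It was lower than in SD 3m for 33 members in SD 12m, against 36.9% of all genes, and for 36 in CR 12m, against 40.6%. Only genes that hold state 5 in SD 3m can fall. It was held by 32 of the 42 members with the TSS bin in state 1 or 2 in SD 3m, and by 6908 of all 10449 genes with such a TSS bin. Over the 10449 genes with the TSS bin in state 1 or 2 in SD 3m the mean was 11%, 5.39% and 3.23%, close to that of the members. The median share of body bins that differed was 24.1% between SD 3m and SD 12m, 27.8% between SD 3m and CR 12m and 16% between SD 12m and CR 12m, close to 25%, 26.3% and 14.9% over all genes.

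State 6, the state of the mark that Polycomb complex 2 places, was nearly absent from these genes, as from other genes with an active TSS. It covered 0.886%, none and 0.0139% of the members' bodies, against 10.2%, 12.6% and 10.2% over all genes and 0.943%, 0.449% and 0.526% over the 10449 genes with the TSS bin in state 1 or 2 in SD 3m. Only Bmi1 and Tet1 held any. In SD 3m, state 6 covered 18.4% of the body of Bmi1 and state 5 covered 40.8%. Neither 12m group had any state 6 there, and state 4 covered 51% of the body in SD 12m and 69.4% in CR 12m. Tet1 had 27.7% of its body in state 6 in SD 3m and none in SD 12m, and in CR 12m, where 94.9% of its body was in state 8, state 6 covered 0.723%. Over the whole genome state 6 covered 9.48%, 14.4% and 10.3% of the bins. This rise in SD 12m was not seen over the 10449 genes, whose mean fell from 0.943% to 0.449%. Bmi1 and Tet1 were picked out because they held state 6, so their fall is no result about the members.

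The members whose bodies differed most were between 2.48 and 19.9 kb long. Between SD 3m and SD 12m the state differed in 85.7% of the body bins of Bmi1, 84.9% of Cbx6, 76.9% of Cbx8, 69% of Kmt2b and 57.1% of Ring1. The same 5 genes headed the comparison of SD 3m with CR 12m, with 93.9%, 64.2%, 61.5%, 67% and 71.4%. In Kmt2b state 4 covered 26%, 90% and 87% of the body, and state 8 covered 58% of it in young mice and none in either 12m group. Cbx8 was in state 5 over 61.5% of its body in SD 3m and in state 3 over 61.5% and 69.2% in SD 12m and CR 12m. Ezh2, named after its values were seen, went the opposite way, with 34.5%, 79.1% and 76% of its body in state 8.

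**Figure D4:**
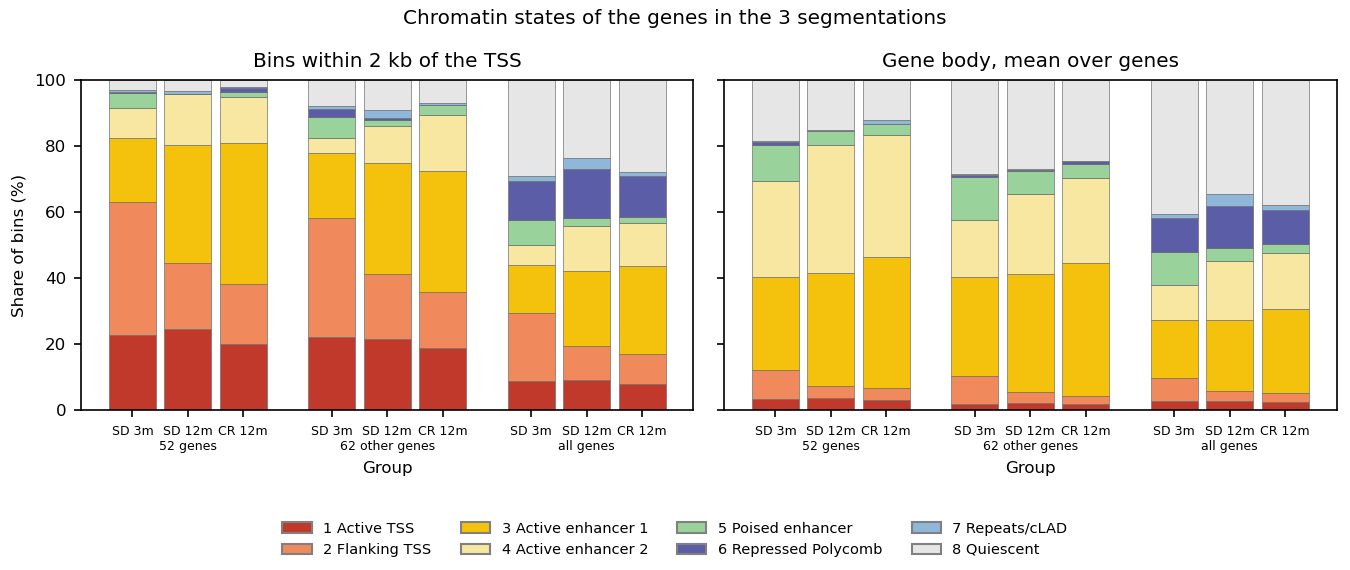
Share of bins in each of the 8 states (stacked bars, percent) within 2 kb of the TSS (left) and over the gene body as a mean over genes (right), for the 52 members, 62 other genes of the same complexes and all 26089 genes in SD 3m, SD 12m and CR 12m. Within 2 kb of the TSS the members' share in state 2 was 40.3%, 19.9% and 18.1%, and their state 6 is hardly visible beside the 11.6%, 15% and 12.3% of all genes.

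A further 62 genes of the same complexes and of related enzymes gave a similar picture. Of these, 45, 41 and 39 had the TSS bin in state 1 or 2, against 40.1%, 34.7% and 30.7% of all genes. Within 2 kb of the TSS, 58.3%, 41.4% and 35.6% of their bins were in these states. The TSS bin differed for 17 of 62 between SD 3m and SD 12m, against 32.6% of all genes. It differed for 22 between SD 3m and CR 12m, against 34.7%, and for 16 between SD 12m and CR 12m, against 26.7%. The 10 with the TSS bin in state 6, 7 or 8 in any group are given by name. Their states hold for the start of the longest transcript, and other curated starts of these genes are not given here. Kdm4c, a lysine 9 demethylase, and Dnmt3l, the germ line partner of the DNMT3 enzymes, were in state 8 in all 3 groups. Hdac9, a class IIa deacetylase, was in state 6 in SD 3m and in state 8 in both 12m groups. Kat6a, an acetyltransferase, was in state 7 in all groups although 10, 6 and 9 of its 20 bins were in state 1 or 2. Rybp, a subunit of Polycomb complex 1, was in state 5, 8 and 4, and Tbl1xr1, a subunit of the NCOR complex, in state 4, 7 and 4. The other 4 lie on the X chromosome. Rbbp7 was in state 1, 7 and 4, Hdac6 in state 8, 8 and 4, Tbl1x in state 8, 1 and 1, and Suv39h1 in state 7, 7 and 4. Of the 50-base stretches in the TSS bin of Rybp, 42.5% were repeated in the assembly. For Kdm4c 13.5% of those within 2 kb of the TSS were repeated.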

How the data were processed

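The authors aligned reads of 50 bases to mm10 with BWA 0.6.2-r126, removed unmapped and duplicate reads with SAMtools 0.1.18, merged the libraries of each group and segmented the genome with ChromHMM. What they deposited, per the labels and the paper's methods, is a state label (a code from 1 to 8, not a signal or a count) for each bin of 200 bp. Depth behind a label is unknown, and merging, binarization and smoothing, which decide where a weak mark is called, could not be repeated. Labels were used as deposited, without a filter.

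TSS and gene bodies were taken from the longest curated RefSeq transcript of 26089 genes in GRCm38.p6, whose 20 chromosome lengths matched the bins of all 3 segmentations. Each segmentation was linked to the group that its name gives. SD 6m was not analysed here. Shares came from numpy 2.4.6 and pandas 2.3.3 under Python 3.11.15, and plots from matplotlib 3.10.9, after the code had been tested on 400 simulated windows. No test across mice was possible with 1 segmentation per group. Alternatives were the most upstream curated start, the most frequent state of 5 bins, 5 classes of states, a window of 1 kb, the gene body without its first 2 kb, pooled body bins and protein-coding genes alone, judged by a factor of 1.5 for counts and by Wilson 95% intervals over bins, from scipy 1.17.1, for shares. These intervals cover bins and not mice.

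The members and lists were chosen with earlier results of these data known. Genes named were those whose TSS bin differed between groups or was in state 1 or 2 in no group, those with the most or fewest bins in state 1 or 2 in SD 3m or with the most bins that differed, the 5 whose bodies differed most, and, among other genes of the complexes, those with the TSS bin in state 6, 7 or 8. Other members were named to complete their role.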

Additional observations from a re-analysis of the deposited data

How the results depend on the processing

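The number of members whose TSS bin differed stayed within a factor of 1.5 under every alternative tried, as did the number with the TSS bin in state 1. With the most frequent state of 5 bins, 21 members differed between SD 3m and SD 12m and 20 between SD 3m and CR 12m. Between SD 12m and CR 12m 11 differed. The share of all genes under this setting is not given, so whether the members stay below it is not known. Within 1 kb of the TSS the share of bins in state 1 or 2 was 76.2%, 64.8% and 56.2% (SD 3m, SD 12m, CR 12m), and with the curated start that had the most such bins in SD 3m, an alternative chosen after seeing the data, it was 69.5%, 47.7% and 41.4%. The order of the groups was kept in both. The share of bins that differed was 28.7% between SD 3m and SD 12m and 34% between SD 3m and CR 12m within 1 kb. With 5 classes of states, which merge states 1 and 2 and states 3 to 5, it was 24.8% between SD 3m and SD 12m, 30% between SD 3m and CR 12m and 13.3% between SD 12m and CR 12m, so part of the differences lay within a class. Without the first 2 kb of the body, state 6 was at 0 in CR 12m. Over protein-coding genes alone the TSS bin differed for 35.5% between SD 3m and CR 12m and for 27.2% between SD 12m and CR 12m. No paired analysis was possible because each group has 1 segmentation of merged libraries and no result comes from a test. Depth, the spread between mice and the strength of a mark cannot be read from labels.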
